A study of Mus musculus with 12 samples.

Results

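F-box proteins are the exchangeable substrate receptors of SCF ubiquitin ligases, and the genes described here are the 75 rows of the deposited count table, of 33100 in all, whose symbol begins with Fbxo, Fbxl or Fbxw followed by a number. The gene that was knocked out in the study is not analysed here. The 75 rows were 35 Fbxo genes, 18 Fbxl genes, 21 Fbxw genes and Fbxl12os, an antisense RNA that fits the symbol pattern but encodes no F-box protein. The study sequenced RNA in bulk from mouse cells labelled as natural killer (NK) cells, sorted from spleen and from tumor, and the mice were controls (WT) or carried a conditional knockout (cKO) of 1 gene. Tissue and genotype give 4 groups of 3 libraries, named spleen WT, tumor WT, spleen cKO and tumor cKO below. The labels give no Cre driver, tumor model, age or strain, and they do not state whether a group's libraries came from separate animals. The p-values below therefore measure the spread between the libraries, which may be technical.

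An SCF ligase joins a cullin scaffold (Cul1), a RING subunit (Rbx1) that recruits the ubiquitin-loaded enzyme, and the adaptor Skp1, which holds the F-box motif of 1 exchangeable receptor. The receptor binds its target, often after the target has been phosphorylated, and so decides which protein is marked for degradation. The names give the rest of the receptor: Fbxw proteins carry WD40 repeats, Fbxl proteins carry leucine-rich repeats, and Fbxo proteins carry other domains. In lymphocytes, targets of this family include cyclins, MYC, BCL6 and the NF-kappa-B inhibitors.

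The upstream sequences of 4 F-box genes are printed to show how the letters before the start site differ between a pair of genes that averaged over 5 RPKM and a pair from a tandem cluster with few reads. Fbxo11 had the highest level per length (RPKM, reads per kilobase scaled to the library total) of the 75 rows and Fbxl14 the most CG dinucleotides of the 57 genes with a RefSeq promoter, while Fbxw15 and Fbxw28 belong to the cluster of chromosome 9. Because Fbxl14 has the most, the size of the CG contrast between the pairs follows in part from this choice. Each window is the 250 bases before the annotated start site, from RefSeq on GRCm38.p6, written 5′ to 3′ on the gene's own strand, with CG dinucleotides in capitals. The windows lie at chr17:88066046-88066295 (Fbxo11, minus strand), chr6:119479418-119479667 (Fbxl14, plus strand), chr9:109568263-109568512 (Fbxw15, minus strand) and chr9:109339660-109339909 (Fbxw28, minus strand). Windows that overlap an annotated exon were left out by rule.
Fbxo11: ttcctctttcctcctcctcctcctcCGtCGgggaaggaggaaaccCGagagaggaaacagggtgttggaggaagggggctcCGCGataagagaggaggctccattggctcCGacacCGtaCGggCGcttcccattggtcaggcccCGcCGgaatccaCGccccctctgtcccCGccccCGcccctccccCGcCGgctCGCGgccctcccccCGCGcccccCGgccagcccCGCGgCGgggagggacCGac
Fbxl14: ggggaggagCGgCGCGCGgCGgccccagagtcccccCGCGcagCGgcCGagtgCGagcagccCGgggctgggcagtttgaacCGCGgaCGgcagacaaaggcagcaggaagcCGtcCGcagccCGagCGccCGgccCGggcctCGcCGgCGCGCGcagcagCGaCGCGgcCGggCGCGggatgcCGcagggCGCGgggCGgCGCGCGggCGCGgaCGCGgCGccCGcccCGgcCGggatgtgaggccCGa
Fbxw15: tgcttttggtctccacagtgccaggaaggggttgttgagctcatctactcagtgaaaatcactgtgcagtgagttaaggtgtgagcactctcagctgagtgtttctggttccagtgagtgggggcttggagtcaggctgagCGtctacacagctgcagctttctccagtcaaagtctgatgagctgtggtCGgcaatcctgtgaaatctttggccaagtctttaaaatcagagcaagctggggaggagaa
Fbxw28: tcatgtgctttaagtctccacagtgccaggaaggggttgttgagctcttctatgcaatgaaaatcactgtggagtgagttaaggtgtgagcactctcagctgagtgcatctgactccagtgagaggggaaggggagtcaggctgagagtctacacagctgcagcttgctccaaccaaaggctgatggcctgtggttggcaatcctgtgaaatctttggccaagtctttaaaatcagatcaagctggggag

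The Fbxo11 window holds 25 CG dinucleotides and the Fbxl14 window holds 47. Another RefSeq start of Fbxo11, not printed because its window overlaps an annotated exon, has 16. The printed Fbxo11 window lies beyond the end of the gene as counted (chr17:88065291). The Fbxw15 window holds 2 and the Fbxw28 window holds 0. Aligned with each other, the windows of Fbxw15 and Fbxw28 matched at 89.8% of 245 aligned bases. Promoters were found in RefSeq for 57 of the 75 rows. Across the 10 matched genes of the chromosome 9 cluster, pairwise identity ran from 84.7% to 97.3% with a median of 91% over 45 pairs, against a median of 58.8% (44.3% to 71.3%) over the 1081 pairs of the other matched genes.

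Of the 75 rows, 52 passed the filter on low counts that was applied to all genes: 28 Fbxo, 14 Fbxl and 10 Fbxw genes. Since the filter keeps a gene that is high in a single group, the 52 are not the whole family. The other 23 all had at least 1 read. They were Fbxl12os, Fbxl7, Fbxl13, Fbxl16, Fbxl21, Fbxo16, Fbxo36, Fbxo39, Fbxo40, Fbxo41, Fbxo43, Fbxo47 and the 11 genes Fbxw14, Fbxw15, Fbxw16, Fbxw18, Fbxw19, Fbxw20, Fbxw24, Fbxw25, Fbxw26, Fbxw27 and Fbxw28. These 11 Fbxw genes held between 1 and 6 reads each over the 12 libraries, 32 in all. Together with Fbxw13 they form a tandem cluster of 12 genes within 611.4 kb (chr9:109179227-109790670). The identity of their exons was not measured, and reads that fit more than 1 of the copies may have been divided between them or lost, so their individual counts are uncertain. The remaining 12 had 4 to 92 reads each. All 9 reads of Fbxl7 came from tumor WT replicate 2.

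Per length, 42 of the 75 rows averaged at least 1 RPKM over the 12 libraries, 18 averaged at least 5, and 21 stayed under 0.1. Fbxo11, the receptor for BCL6, led in every group, with 47.7 ± 5.52 RPKM (SD, n = 3) in spleen and 53.9 ± 13.2 in tumor of WT, and 48.4 ± 1.80 in spleen and 35.6 ± 10.3 in tumor of cKO. Fbxo22, which directs the degradation of histone demethylase KDM4A, averaged 21.1 RPKM. Fbxo34 averaged 13.0 RPKM, but its place in the family moved from 17th in spleen WT and 15th in spleen cKO to 2nd in both tumor groups. Fbxo18, a DNA helicase with an F-box, averaged 10.3 RPKM, and Fbxw7, the receptor for cyclin E and MYC, averaged 9.82.

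**Figure D1:**
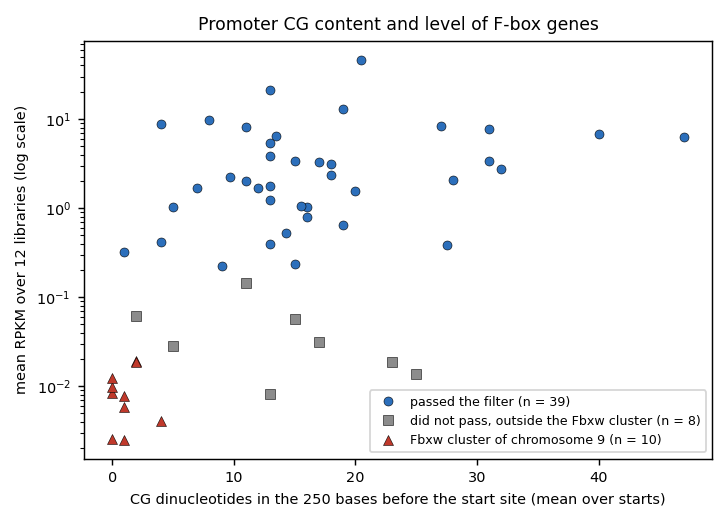
CG dinucleotides in the 250 bases before the start site (x axis, mean over a gene's starts) against mean RPKM over the 12 libraries (y axis, log scale), 1 point per F-box gene with a RefSeq promoter. The 10 genes drawn from the chromosome 9 Fbxw cluster, without Fbxw13 and Fbxw27, lie at 0 to 4 CG dinucleotides and under 0.1 RPKM. The 8 other genes drawn that did not pass the filter span 2 to 25.

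The median count of CG dinucleotides was 15 (range 1 to 47) in the 39 matched genes that passed the filter and 1 (0 to 4) in the 10 matched genes of the chromosome 9 cluster, beside a median of 6 over 27025 mouse genes. Those 10 all failed the filter: Fbxw13, the cluster gene that passed, had no RefSeq promoter, nor did Fbxw27. The 8 other matched genes that did not pass had a median of 14 (2 to 25), close to that of the genes that passed. Outside the cluster, Fbxw10, Fbxo40, Fbxl22 and Fbxo4 also had 4 or fewer, and Fbxo4 averaged 8.86 RPKM, so a low count was not particular to the cluster or to low genes. Letters of 2 transcription factor families were searched on both strands of the window from 250 bases before to 50 after the start. None of the 57 matched genes held TTTCCCGC, TTTGGCGC, TTTCGCGC or TTTGCCGC, which E2F factors bind, or GTAAACA, which FOXO factors bind. Fbxo32 and Fbxo45 are not among the 57 and were not searched. Over all 27025 genes, 2.6% held an E2F match and 4.05% a FOXO match.

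Totals ran from 9542329 to 37118494 counts per library. Markers were read against the NK cell label. Summed over 10 genes, NK markers reached 1269 to 1706 CPM (counts scaled to a common library total) in the 6 spleen libraries, but 56.43 to 85.01 in tumor cKO and 76.45 to 283.8 in tumor WT. The NK receptor gene Ncr1 lay between 90.8 and 204 CPM in spleen and between 0.421 and 1.86 CPM in tumor. The 12 macrophage markers summed to 48.95 to 234.2 CPM in spleen, 765.5 to 2057 in tumor cKO and 5346 to 12590 in tumor WT. Sums for the 10 B-cell markers were 3821 to 4681 CPM in spleen, 88.02 to 136.8 in tumor cKO and 150.6 to 2133 in tumor WT. T-cell markers summed to 117.4 to 225.7 CPM in spleen, 439.2 to 644.8 in tumor cKO and 259.7 to 335.3 in tumor WT, and the 8 stromal and endothelial markers to 143.7 to 179.9, 79.31 to 150.8 and 210 to 1891. Erythroid markers summed to at most 46.1 CPM and neutrophil markers to at most 85.65. The tumor libraries thus did not carry the marker profile of their label. The 6 spleen libraries carried NK markers, but in each of them the B-cell sum exceeded the NK sum. Among the tumor libraries, 3 stood apart from their groups. Tumor WT replicate 2 had the highest macrophage and stromal sums (12590 and 1891 CPM), tumor WT replicate 3 held the B-cell sum of 2133 CPM, and tumor cKO replicate 3 had the lowest macrophage sum (765.5 CPM). Fewer cells of a type and less RNA per cell cannot be told apart in bulk samples.

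The summed CPM of the 75 rows was 1049 to 1129 in the 6 spleen libraries, 953.4 to 1016 in tumor cKO and 1208 to 1337 in tumor WT. Without the composition factor, as plain shares of each library's counts, the sums were 1058 to 1181, 991.4 to 1049 and 1154 to 1212, so that tumor WT then overlapped spleen and tumor cKO still lay below every other library. Single genes differed far more than the sum, and more of them between tissues than between genotypes. In the map of the tested genes by library, the tumor columns of Fbxo30 and Fbxo34 stand out as high and those of Fbxo24, Fbxo27 and Fbxw13 as low.

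**Figure D2:**
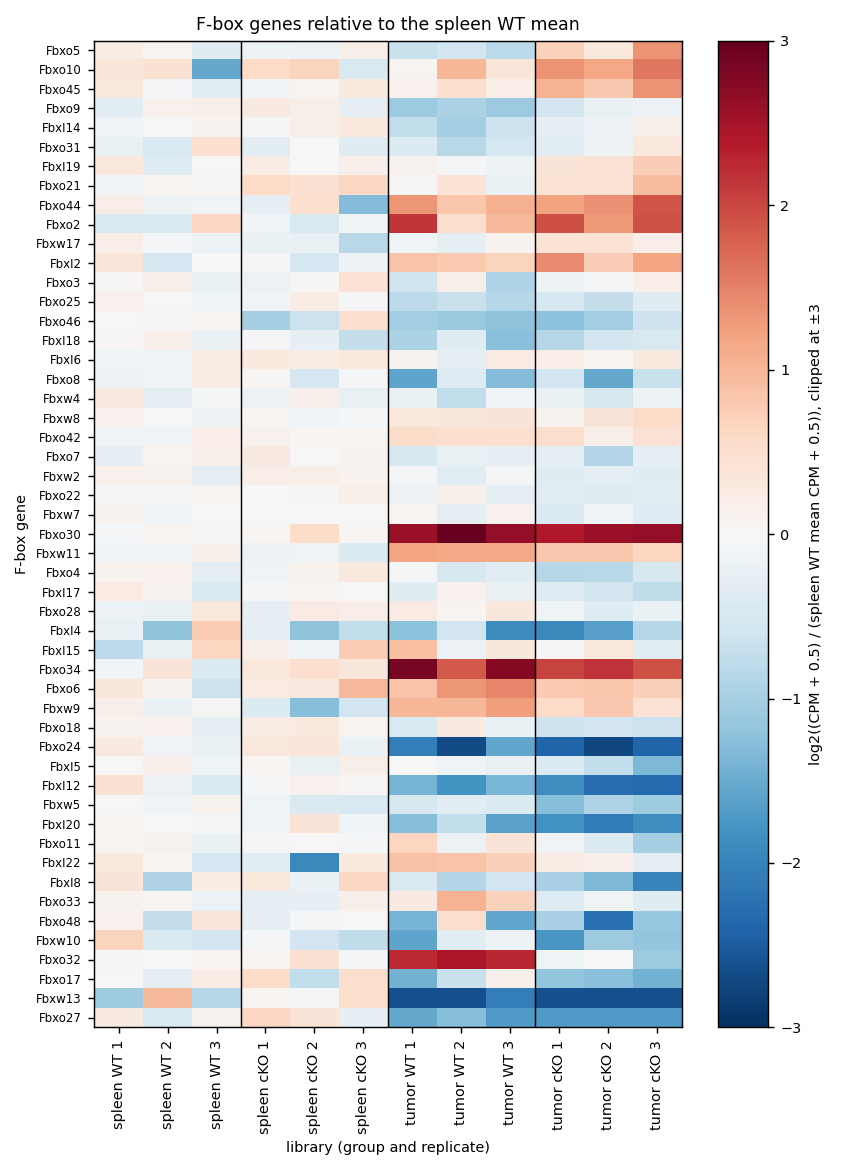
Each row is 1 of 51 of the 52 tested F-box genes and each column 1 of the 12 libraries; colour gives log2 of (CPM + 0.5) over the spleen WT mean + 0.5, clipped at 3 in either direction, with rows ordered by the cKO effect in tumor. Fbxo32 is high in the 3 tumor WT libraries only, and Fbxo5 is highest in the 3 tumor cKO libraries.

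In spleen, cKO against WT, no F-box gene passed the test. Called genes here and below have a Benjamini-Hochberg adjusted p under 0.05 in edgeR's quasi-likelihood test over all 16831 genes tested, of which 0.0297% were called in spleen. At an unadjusted p under 0.05, where the share of all genes was not counted, there were 2 of the 52, and DESeq2 also called 0. Those of smallest p were Fbxw9 (log2 fold change -0.85 ± 0.33, SE), Fbxo21 (0.59 ± 0.24) and Fbxw5, a centrosome duplication regulator (-0.34 ± 0.17), each with an adjusted p of 1. The CPM of Fbxo21 was 6.15, 7.08 and 6.80 in spleen WT and 10.3, 9.32 and 10.5 in spleen cKO. Those 2 groups did not overlap for Fbxo21, nor for 5 of the other genes, 11.5% of the 52 beside 11.4% of all genes tested.

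In tumor, cKO against WT, 5 F-box genes rose and 10 fell. That is 28.8% of the 52, beside 38% of all genes tested (16.4% higher, 21.6% lower). The median log2 fold change over the 52 was -0.35 (-0.31 with Fbxo27 and Fbxw13, which had no reads in tumor cKO, set at their bounds), against -0.12 over all genes. The ranges of the 2 groups did not overlap for 26 genes, 50% of the 52 beside 50.3% of all genes. The balance of directions rested on the scaling: without the composition factor, which moves the median of all genes from -0.12 to 0.06, 7 F-box genes were called higher and 6 lower. Of all genes, 38.7% were then called. Without tumor WT replicate 2 and tumor cKO replicate 3, 4 F-box genes were higher and 9 lower, beside 32.7% of all genes called. Markers of macrophages (10 of 11 lower), of NK cells (9 of 10 lower) and of the cell cycle (22 of 24 higher) moved in the same comparison, and their part in the F-box results was not tested. Of the other lists, T-cell markers had 4 of 12 higher and 2 lower, B-cell markers 2 of 10 higher and 1 lower, stromal and endothelial markers 4 of 8 lower, neutrophil markers 1 of 3 higher and erythroid markers 0 of 7 called.

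**Figure D3:**
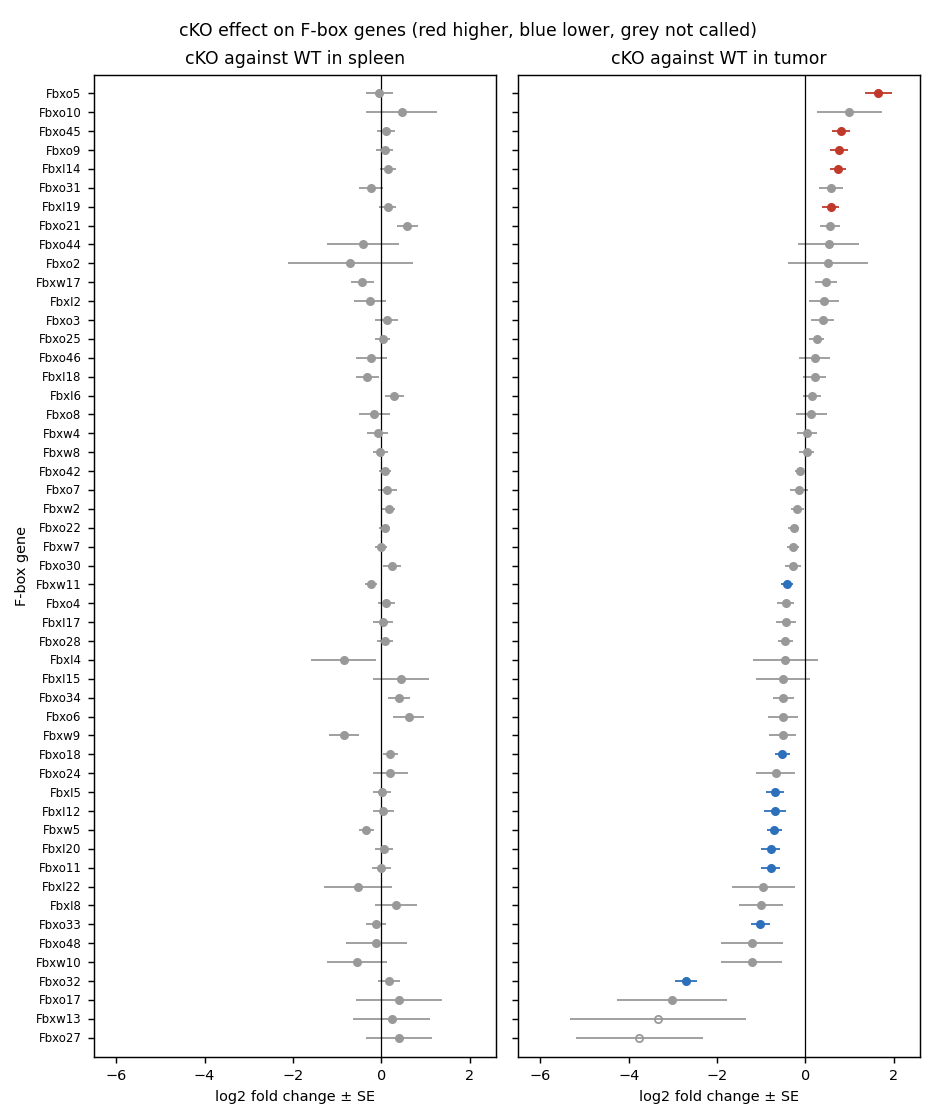
Log2 fold change ± SE of 51 of the 52 tested F-box genes (rows) for cKO against WT in spleen (left) and tumor (right), with called genes in red (higher) or blue (lower). Open circles mark Fbxo27 and Fbxw13, which had no reads in tumor cKO, so that their position depends on the prior count of the fit. No gene drawn is coloured in spleen, and Fbxo32 is the lowest called gene in tumor.

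Among the F-box genes called in tumor, cKO against WT, the largest change belonged to Fbxo32 (chr15:58175879-58214892). It encodes atrogin-1, a receptor best known from muscle wasting and as a target of FOXO transcription factors. Its CPM was 13.1, 13.7 and 14.2 in spleen WT and 14.5, 18.8 and 13.0 in spleen cKO. In tumor it was 66.8, 75.7 and 66.8 in WT and 12.5, 13.5 and 6.20 in cKO. All 3 tumor WT libraries were far above the other 9, and tumor cKO lay within or below the spleen range. The log2 fold change in tumor, cKO against WT, was -2.71 ± 0.25 (SE; edgeR adjusted p = 2.5e-05), and tumor against spleen in WT it was 2.35 ± 0.25 (adjusted p = 3.69e-06); both comparisons use the same tumor WT libraries. Tumor cKO against spleen cKO gave -0.53 ± 0.24 (adjusted p = 0.0754). The cKO effect in tumor differed from that in spleen (0.18 ± 0.24) by -2.88 ± 0.35 (adjusted p = 0.000854), and this difference held under each alternative run.

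Fbxo5 (chr10:5799160-5805600) encodes EMI1, which blocks the anaphase-promoting complex (APC/C) and so protects cyclins from early degradation. Its CPM was 6.53, 5.87 and 4.16 in spleen WT, and 4.92, 4.81 and 6.25 in spleen cKO. In tumor it was 3.31, 3.58 and 2.95 in WT and 9.27, 6.97 and 14.7 in cKO. Each tumor cKO library was above the other 9 libraries, and replicate 3 was the highest. Fbxo5 rose by 1.65 ± 0.31 on the log2 scale in tumor, cKO against WT (edgeR adjusted p = 0.00117). The difference between the effects in tumor and spleen was 1.70 ± 0.43 (adjusted p = 0.017), and it was no longer called without tumor cKO replicate 3 (adjusted p = 0.0503). The 24 cell cycle genes summed to 4940 to 6754 CPM in tumor cKO, 1560 to 2306 in tumor WT, 1591 to 1752 in spleen cKO and 1218 to 1339 in spleen WT; whether they account for the change in Fbxo5 was not tested.

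Among the other genes that rose in tumor cKO was Fbxo45, which works with the ligase PAM rather than with Cul1 and is known from synapse formation. It had 19.3, 25.0 and 20.4 CPM in tumor WT, against 36.9, 31.2 and 45.6 in tumor cKO, so that the groups did not overlap (log2 fold change 0.81 ± 0.20, edgeR adjusted p = 0.00695). Fbxl14 promotes the degradation of SNAIL-family repressors. It had 11.9, 9.70 and 13.0 CPM in tumor WT, against 17.0, 17.9 and 22.8 in tumor cKO (0.74 ± 0.18, adjusted p = 0.0065), so that tumor cKO lay near the spleen range of 18.5 to 24.9 and tumor WT below it. Fbxo9, a receptor of components of mTOR signalling, was alike in this: 11, 12.1 and 11 CPM in tumor WT, 16.2, 20.3 and 21.1 in tumor cKO and 19.0 to 29.1 in spleen (0.76 ± 0.20, adjusted p = 0.00885). Fbxl19, which also carries a CXXC zinc finger that binds unmethylated CG, rose from 15 ± 1.4 to 22.2 ± 3.0 CPM (SD, n = 3; 0.57 ± 0.20, adjusted p = 0.0352). The call for Fbxl14 ended without tumor WT replicate 2 and tumor cKO replicate 3 together (adjusted p = 0.0617), and that for Fbxl19 ended without any 1 of the 3 tumor WT libraries or without tumor cKO replicate 2 or 3.

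**Figure D4:**
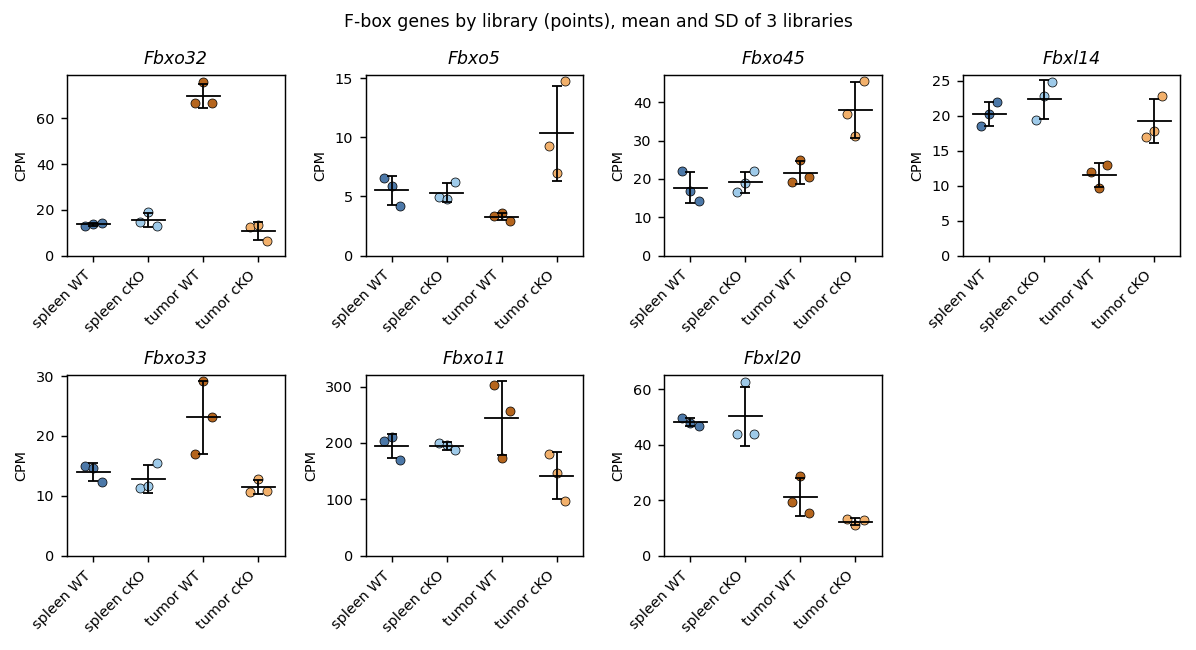
CPM of 7 F-box genes in each library (points), with the mean (long line) and SD (bars) of the 3 libraries of a group; each panel has its own axis from 0. The tumor WT libraries stand apart for Fbxo32, the tumor cKO libraries for Fbxo5 and Fbxo45, and 1 tumor WT library overlaps tumor cKO for Fbxo11.

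Fbxo33 and Fbxo11 were among the genes that fell in tumor cKO. Fbxo33, a receptor for the Y-box protein YB-1, had 16.9, 29.3 and 23.1 CPM in tumor WT, against 10.6, 12.7 and 10.8 in tumor cKO (log2 fold change -1.02 ± 0.22, edgeR adjusted p = 0.00278). Every tumor WT library was above every other library, and tumor cKO lay near the spleen range of 11.4 to 15.6. Fbxo11 had 303, 174 and 257 CPM in tumor WT, against 180, 148 and 97.9 in tumor cKO (-0.79 ± 0.22, adjusted p = 0.0134). Tumor WT replicate 2, the library with the highest macrophage and stromal sums, lay inside the tumor cKO range, and the call ended without tumor WT replicate 1 (adjusted p up to 0.0845 over the alternatives).

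Fbxl20, known in neurons as Scrapper, showed a tissue difference as well as a genotype difference. It had 44.0 to 62.6 CPM across the 6 spleen libraries, 19.4, 28.6 and 15.4 CPM in tumor WT, and 13.3, 10.9 and 12.8 CPM in tumor cKO (-0.78 ± 0.21 for cKO against WT in tumor, edgeR adjusted p = 0.0122). Without tumor cKO replicate 2 the call ended. Fbxl5, which binds iron and controls the iron regulator IRP2, had 58.2, 52.8 and 49.5 CPM in tumor WT, against 43.0, 34.4 and 22.5 in tumor cKO (-0.68 ± 0.20, adjusted p = 0.016). Tumor cKO replicate 3 was the lowest library for Fbxl5, and the call ended without it or without tumor WT replicate 1. Fbxw5 fell from 16.5 ± 0.84 to 10.1 ± 1.3 CPM (SD, n = 3; -0.71 ± 0.17, adjusted p = 0.00561), and this call held under each alternative run.

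The 3 other genes called lower were Fbxl12 (-0.68 ± 0.24, edgeR adjusted p = 0.0421), a receptor for the cell cycle inhibitor p21, the helicase gene Fbxo18 (-0.53 ± 0.17, adjusted p = 0.03) and Fbxw11 (-0.42 ± 0.13, adjusted p = 0.0221). Fbxw11 encodes beta-TrCP2, which marks the NF-kappa-B inhibitors and beta-catenin. It had 58.5, 57.5 and 56.4 CPM in tumor WT, against 44.7, 44.5 and 39.9 in tumor cKO, a small step with no overlap. Without the composition factor none of these 3 was called, nor was Fbxl5. Leaving out 1 library also ended calls: for Fbxw11 that library was tumor WT replicate 1 or 3 or tumor cKO replicate 3, for Fbxo18 it was tumor WT replicate 2 or any of the tumor cKO libraries, and for Fbxl12 it was spleen WT replicate 2, any spleen cKO library, tumor WT replicate 1 or 3 or tumor cKO replicate 2 or 3. In a fit of the tumor libraries alone, Fbxl5, Fbxl12, Fbxl20, Fbxo11, Fbxo18 and Fbxw11 were not called, which leaves Fbxo32, Fbxo33 and Fbxw5 as the genes called lower there. Exons of Fbxl12 overlap those of Ubl5 on the opposite strand over 37.1% of their length, and since the strand setting of the counting is not given, reads of the pair cannot be told apart.

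Other receptors with well-known targets did not pass the test in tumor. Fbxw7 had 72.2 ± 10 CPM in tumor WT and 59.5 ± 8.1 in tumor cKO (SD, n = 3; log2 fold change -0.28 ± 0.13, edgeR adjusted p = 0.118). Fbxo22 had 50.3 ± 8.0 and 41.9 ± 0.90 CPM (-0.27 ± 0.13, adjusted p = 0.119). Fbxo4, described as a receptor for cyclin D1 and the telomere protein TRF1, had 17.0 ± 2.7 and 12.4 ± 1.9 CPM (-0.45 ± 0.19, adjusted p = 0.0839). Fbxo31, a receptor for cyclin D1 after DNA damage, stood at 9.75 ± 1.5 and 14.5 ± 3.4 CPM (0.58 ± 0.27, adjusted p = 0.104). Fbxo7, which acts in mitophagy, differed by -0.14 ± 0.21 and Fbxw8, which pairs with the cullin Cul7, by 0.02 ± 0.16. Fbxo10, a receptor for BCL2, had 3.27 ± 0.54 CPM in tumor cKO and 1.62 ± 0.72 in tumor WT, with a wide error at this depth (0.99 ± 0.74).

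Of the genes that build or service the ligase, 9 of 23 rose in tumor cKO and 0 fell (median log2 fold change 0.28, against -0.12 over all genes). That is 39.1% of the list, close to the 38% of all genes tested. The adaptor gene Skp1a rose from 60.4 ± 8.3 to 101 ± 8.5 CPM (SD, n = 3; 0.75 ± 0.13, edgeR adjusted p = 0.000652). The cullin Cul1 (0.12 ± 0.11) and the RING subunit Rbx1 (-0.26 ± 0.17) were not called. The others that rose included Nae1 (0.84), a subunit of the enzyme that activates the cullin modifier NEDD8, Cops3 (0.76) of the COP9 signalosome, which removes NEDD8 again, and the exchange factor Cand1 (0.52), which swaps F-box receptors. In spleen 0 of the 23 were called. Between tumor and spleen, 6 of the 23 were higher and 4 lower in WT (43.5%, beside 62% of all genes), and 10 were higher and 2 lower in cKO (52.2%, beside 60.5%).

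Of 6 F-box genes with other symbols that were tested, only Skp2 was called in tumor, cKO against WT: it removes the cell cycle inhibitor p27, and it had 5.0, 4.71 and 3.07 CPM in tumor WT, against 19.9, 11.4 and 16.8 in tumor cKO (1.91 ± 0.39, edgeR adjusted p = 0.00212). Ccnf, or cyclin F (0.36 ± 0.33), Btrc, the paralog of Fbxw11 (0.34 ± 0.28), Kdm2a (-0.02 ± 0.12) and Kdm2b (0.08 ± 0.17) were not called there. A list of genes around the APC/C, the other large ligase of the cell cycle, had 8 of 16 genes higher and 2 lower. That is 62.5% beside 38% of all genes tested. Those of smallest p were Bub1b (1.54), Cdc23 (1.52) and Anapc1 (1.01), of which Bub1b encodes a checkpoint inhibitor of the APC/C and not a subunit. Cullin genes of other ligases had 1 of 8 higher (Cul2, 0.59) and 1 lower (Cul9, -1.91), or 25%. In spleen, 0 genes of these 3 lists were called, and the same held for the targets, the cell cycle genes and the marker lists. The spleen groups were still apart in some sums. Cell cycle genes summed to 1218 to 1339 CPM in spleen WT, against 1591 to 1752 in spleen cKO, with 24 of 24 log2 fold changes above 0 and 8 at an unadjusted p under 0.05. Macrophage markers summed to 48.95 to 88.17 CPM in spleen WT, against 140.7 to 234.2 in spleen cKO, with 11 of 11 above 0 and 7 at an unadjusted p under 0.05. For both lists, the share of all genes at that unadjusted threshold was not counted.

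Of 19 textbook targets of F-box proteins, 6 rose and 9 fell in tumor cKO against WT at the RNA level, 78.9% beside 38% of all genes tested; the list was chosen with results of these data known. The cyclin E genes Ccne1 (1.84) and Ccne2 (1.70), the phosphatase Cdc25a (1.34), Ccnd1 (1.39), Wee1 (1.11) and Myc (0.90) were higher. Notch1 (-1.40), Jun (-1.33), the clock genes Per1 (-0.87), Per2 (-1.10) and Cry1 (-0.75), Nfkbia (-0.97), Bcl6 (-0.90), Ctnnb1 (-0.71) and Mcl1 (-0.50) were lower. Bcl6 fell beside its receptor's gene Fbxo11, and Nfkbia and Ctnnb1 beside Fbxw11, but these pairs were picked from the list and others differed. Cdc25a and Wee1, also targets of beta-TrCP, rose while Fbxw11 fell, and its paralog Btrc was not called. Ccne1, Ccne2 and Myc rose while Fbxw7 was not called, and Ccnd1 rose while Fbxo4 was not called. RNA levels do not report protein stability, which was not measured.

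Between tumor and spleen in WT, 10 F-box genes were higher in tumor and 13 lower, 44.2% of the 52 beside 62% of all genes tested (33.9% higher, 28.1% lower). The median log2 fold change was -0.10 for the F-box genes and 0.12 for all genes. Ranges did not overlap for 25 of the 52 genes, 48.1% beside 67.3% of all genes. The comparison sets libraries rich in B-cell and NK markers against libraries rich in macrophage markers, with the sums given above, and the part of cell composition was not tested.

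Fbxo30 and Fbxo34 stood out among the genes that were higher. Fbxo30, also studied in muscle mass control, had 8.80, 9.79 and 8.88 CPM in spleen WT and 57.6, 86.7 and 59.7 in tumor WT (log2 fold change 2.89 ± 0.20, edgeR adjusted p = 1.02e-07). In cKO it had 9.54, 13.6 and 9.52 CPM in spleen and 50.6, 57.8 and 59.3 in tumor (2.36 ± 0.20). Tumor values exceeded spleen values in every library, and the difference between genotypes in tumor did not pass the test (-0.28 ± 0.18, adjusted p = 0.234). Fbxo34 had 14.9, 20.9 and 11.9 CPM in spleen WT and 117, 58.6 and 110 in tumor WT (2.57 ± 0.26, adjusted p = 2.43e-06), and it was higher in tumor cKO than in spleen cKO as well (1.67 ± 0.25). Tumor WT replicate 2 had the lowest tumor value of Fbxo34, and without it the gene was also called lower in tumor cKO than in tumor WT.

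Besides Fbxo32, the other genes higher in tumor WT were Fbxw9 (1.21 ± 0.31), Fbxw11 (1.18 ± 0.13), Fbxl2 (0.89 ± 0.35), Fbxo33 (0.72 ± 0.22), Fbxo42, a receptor reported for p53 (0.51 ± 0.13), and the sugar-binding receptors Fbxo2 and Fbxo6 described below. Fbxw11 had 18.8 to 28.3 CPM across the 6 spleen libraries and 39.9 to 58.5 across the 6 tumor libraries. The call for Fbxl2 ended in 13 of the alternatives, among them leaving out replicate 2 or 3 of spleen WT, 3 of spleen cKO, 1 or 3 of tumor cKO or any 1 of the 3 tumor WT libraries. In cKO, Fbxw9 (1.54 ± 0.32) and Fbxl2 (1.57 ± 0.35) were called higher in tumor under each alternative run.

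The falls included genes of low level. Fbxw13, the only gene of the chromosome 9 cluster to pass the filter, had 0.986, 5.65 and 1.23 CPM in spleen WT and 0, 0 and 0.241 in tumor WT (log2 fold change -5.19 ± 1.18, edgeR adjusted p = 0.00263). It had 2.79, 2.51 and 3.98 CPM in spleen cKO and no read in tumor cKO, which makes it at least 69.3-fold lower there (the floor, 3 counts, is per group). Fbxo24 had 5.10 to 7.82 CPM in the 6 spleen libraries and 0.481 to 1.69 in the 6 tumor libraries (-2.50 ± 0.43 in WT and -3.38 ± 0.45 in cKO). Both genes were lower in every tumor library than in any spleen library.

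Better expressed genes also fell. Fbxl12 had 36.0, 23.1 and 19.1 CPM in spleen WT and 9.59, 7.19 and 9.82 in tumor WT (-1.56 ± 0.24, edgeR adjusted p = 0.000105). Fbxl20 fell by 1.18 on the log2 scale (SE 0.21), Fbxo46 by 1.20 (SE 0.35), Fbxo9 by 1.07 (SE 0.20), Fbxo8, which carries an ARF-exchange domain, by 1.04 (SE 0.35) and Fbxl18 by 0.83 (SE 0.26). Fbxl14 (-0.82 ± 0.18), Fbxo25, the paralog of Fbxo32 (-0.79 ± 0.17), Fbxo5 (-0.75 ± 0.31) and Fbxw5 (-0.41 ± 0.17) were lower by less. Fbxo25 and Fbxo32 thus differed in direction, since Fbxo25 had 18.9 to 22.5 CPM in spleen WT and 11.2 to 12.8 in tumor WT. The calls for Fbxo5 and Fbxw5 lay close to the threshold (adjusted p = 0.049 and 0.0465) and ended in most alternatives. For Fbxo5 they include each library but spleen WT replicate 3 and tumor cKO replicates 2 and 3, and for Fbxw5 each but spleen cKO replicate 1. The call for Fbxo8 ended without spleen WT replicate 3, tumor WT replicate 1 or 3, and that for Fbxl18 ended without tumor WT replicate 3.

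The 5 genes with the sugar-binding (FBA) domain lie in 2 places in the genome. Some of their proteins recognise N-glycans on misfolded glycoproteins, but this is not established for all 5. Fbxo6, Fbxo44 and Fbxo2 are neighbours on chr4:148145716-148166424, with gaps of 659 and 138 bases, and Fbxo27 and Fbxo17 are neighbours on chr7:28692849-28738144, with a gap of 17465 bases. Each gene of the chromosome 4 group was called higher in tumor in at least 1 genotype: Fbxo6 in WT only, Fbxo44 in cKO only and Fbxo2 in both. Of all genes tested, 33.9% were called higher in tumor in WT and 31.7% in cKO. Fbxo6 had 3.79, 3.16 and 1.70 CPM in spleen WT and 5.64, 8.01 and 8.92 in tumor WT (log2 fold change 1.37 ± 0.35, edgeR adjusted p = 0.00381), without overlap. In cKO the tissues overlapped for Fbxo6, and it was not called (0.25 ± 0.34, edgeR adjusted p = 0.539). Fbxo44 had 0 to 1.20 CPM in the 6 spleen libraries and 1.66 to 4.03 in the 6 tumor libraries, and it was called in cKO (2.44 ± 0.77, adjusted p = 0.015) but not in WT (1.51 ± 0.75, adjusted p = 0.0944). The cKO call for Fbxo44 ended without tumor cKO replicate 3 (adjusted p = 0.0503). Fbxo2 had 0, 0 and 0.567 CPM in spleen WT and 2.56, 0.480 and 0.844 in tumor WT (2.84 ± 1.13, adjusted p = 0.0423), with overlapping ranges. The WT call for Fbxo2 ended in 9 alternatives, among them the removal of replicate 1 or 2 of spleen WT, 1 or 3 of spleen cKO, 1 of tumor WT or any tumor cKO library, whereas in cKO it was called under each alternative run (4.04 ± 1.19, adjusted p = 0.00992).

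**Figure D5:**
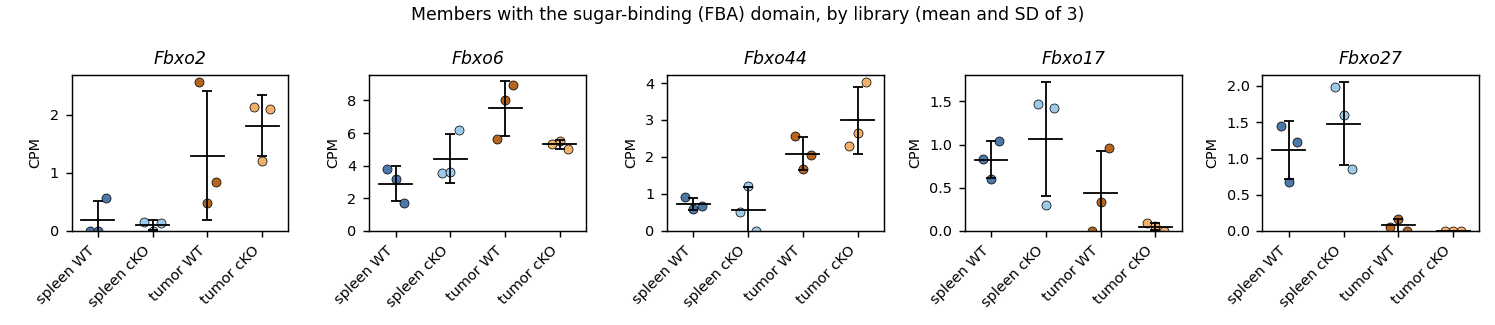
CPM of the 5 F-box genes with the sugar-binding domain in each library (points), with mean and SD of the 3 libraries of a group; each panel has its own axis from 0. Fbxo6, Fbxo44 and Fbxo2, of chromosome 4, have their highest values in tumor, and Fbxo17 and Fbxo27, of chromosome 7, have theirs in spleen.

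The chromosome 7 pair was lower in tumor, Fbxo27 in both genotypes and Fbxo17 in cKO. Fbxo27 had 1.44, 0.678 and 1.23 CPM in spleen WT and 0.0581, 0.169 and 0 in tumor WT (-3.54 ± 0.89, edgeR adjusted p = 0.00489). It had 1.98, 1.60 and 0.852 CPM in spleen cKO and no read in tumor cKO, at least 32.1-fold lower by the same floor. Fbxo17 had 0.835, 0.602 and 1.04 CPM in spleen WT and 0, 0.339 and 0.964 in tumor WT, which overlapped (-0.93 ± 1.0, adjusted p = 0.433). In cKO, Fbxo17 had 1.47, 0.301 and 1.42 CPM in spleen and 0.0854, 0.0601 and 0 in tumor (-4.34 ± 1.23, adjusted p = 0.00821). All these values rest on few reads, and Fbxo27, like Fbxw13, passed the filter through its spleen libraries. Fbxo17 did not pass the filter when only the spleen cKO and tumor cKO libraries were fitted.

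Between tumor and spleen in cKO, 11 F-box genes were higher and 17 lower, 53.8% of the 52 beside 60.5% of all genes tested. The 2 tissue comparisons do not share libraries. The median log2 fold change was -0.34 for the F-box genes and 0.07 for all genes, and ranges did not overlap for 36 genes, 69.2% beside 70% of all genes. Besides the genes given above, Fbxl8 fell from 4.39 ± 1.3 to 1.04 ± 0.52 CPM (SD, n = 3; -2.08 ± 0.51, edgeR adjusted p = 0.00321), Fbxl12 by 2.28 (SE 0.25) and Fbxl20 by 2.02 (SE 0.22). Fbxo4 (-0.85), Fbxo18 (-0.82), Fbxl5 (-0.80), Fbxw5 (-0.78), Fbxo7 (-0.60) and Fbxo22 (-0.42) were among the smaller falls. Fbxo45 (0.99), Fbxo5 (0.95), Fbxw11 (1.0) and Fbxw8 (0.40) were higher in tumor cKO, the last with an adjusted p of 0.0458 and with exons shared with Gm9754 on the opposite strand over 33.4% of their length. Of these, the call for Fbxo7 ended without replicate 1 or 3 of spleen cKO or 2 of tumor cKO, that for Fbxo22 without spleen cKO replicate 3, that for Fbxo5 without replicate 1 of spleen cKO or 3 of tumor cKO, and that for Fbxw8 without replicate 1 or 2 of spleen WT, any spleen cKO library, replicate 1 of tumor WT or 2 or 3 of tumor cKO.

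The difference between the cKO effects in the 2 tissues was itself called for 2 of the 52 F-box genes, Fbxo32 (lower in tumor) and Fbxo5 (higher in tumor), which is 3.85% beside 18.3% of all genes tested (7.68% higher, 10.6% lower). A further 14 had an unadjusted p under 0.05, but the share of all genes at that threshold was not counted. For the other 13 genes called in tumor alone, the difference from spleen did not pass: it was, for example, -0.90 ± 0.31 for Fbxo33 (edgeR adjusted p = 0.0588), -0.84 ± 0.30 for Fbxl20 (adjusted p = 0.0693) and 0.70 ± 0.29 for Fbxo45 (adjusted p = 0.108). These genes were therefore not shown to respond differently in tumor and spleen. DESeq2 called 4 F-box genes lower in this comparison, with Fbxl20, Fbxo18 and Fbxo33 beside Fbxo32. Over all genes it called 25.9% there.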

How the data were processed

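RNA-seq of 12 mouse libraries was analysed in the 4 groups given by the labels. The authors mapped reads with TopHat2 2.0.6 to mm10, per the submitters' processing notes; neither counting program nor strand setting is given in the sources used here. Raw counts per gene were deposited by the authors, of which 68.8% to 73.3% of values from 1 to 49 were even, as when both mates of a pair are counted. The authors also deposited RPKM values, which matched those recomputed from the counts within a relative difference of 0.00014. Some genes, the knocked-out gene among them, are not reported here, and no check of the genotype labels was made with the knocked-out gene.

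Counts were tested with edgeR 4.0.16 in R 4.3.3 (TMM factors 0.896 to 1.055, filterByExpr, robust quasi-likelihood F-test, 1 mean per group, 8 residual degrees of freedom), adjusted by the Benjamini-Hochberg method over 16831 genes in 5 comparisons, and the code was tested on simulated data. CPM uses the TMM-scaled totals. Floors of 3 counts per group (0.0433 to 0.081 CPM) cover counting error only. Named genes were the called F-box genes with the largest changes (12 each way in tumor cKO against WT and in tumor against spleen WT, 6 each way elsewhere), 16 genes with well-known targets, the 5 of highest RPKM, and the 3 of smallest p in spleen. The F-box genes and the comparison lists (SCF core with neddylation and COP9, other F-box genes, other cullins, APC/C, targets, cell cycle, and markers of NK cells, macrophages, T cells, B cells, erythroid, stromal and endothelial cells and neutrophils) were chosen with earlier results of these data known. Alternatives were another scaling (no composition factor), DESeq2 1.42.0, no filter or a stricter filter, a fit of the 2 groups compared, limma-trend 3.58.1 on log2(RPKM + 0.1), a replicate block, and leaving out libraries. Gene positions on GRCm38 were taken from the count table; 74 of the 75 rows were found in GENCODE vM21, and all of these overlapped the listed position. Promoters came from RefSeq (GRCm38.p6).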

Additional observations from a re-analysis of the deposited data

Results flagged for a closer look

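Both results below stand out because the cKO effect differed between the tissues by a test of that difference in edgeR. For Fbxo32 the difference between the log2 effects in tumor and spleen was -2.88 (SE 0.35, adjusted p = 0.000854), with all 3 tumor cKO libraries below all 3 tumor WT libraries and overlapping genotypes in spleen. For Fbxo5 it was 1.70 (SE 0.43, adjusted p = 0.017), with all 3 tumor cKO libraries above all 3 tumor WT libraries and overlapping genotypes in spleen. In tumor, cKO against WT, macrophage markers (10 of 11) were lower and cell cycle genes (22 of 24) higher, and their part in either result was not tested.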

How the results depend on the processing

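Of 54 results for named genes, 37 kept their direction and their side of the threshold under every alternative that could be run, 17 lost the call in at least 1, and 0 reversed. For cKO against WT in tumor, the 10 F-box genes called lower became 6 without the composition factor, 3 in a fit of the 2 tumor groups alone and 5 with limma-trend on RPKM, and 6 to 13 when 1 library was left out (6 without tumor cKO replicate 3). Of all genes, 38% were called either way in the main fit, and 38.7%, 33.1% and 39.5% in the first alternatives named. Without tumor cKO replicate 3 that share was 25.2%. Of the genes called by any test there, the share higher was 43.1% after composition scaling and 57.5% with no composition factor. For the difference between tissues, the 1 gene called higher became 2 without the composition factor, 3 with limma-trend on RPKM, and 0 to 1 when 1 library was left out (0 without tumor cKO replicate 3). The 1 called lower became 4 with DESeq2, 4 without the filter, 4 without tumor WT replicate 2 and tumor cKO replicate 3 together (an alternative chosen after seeing the data), and 1 to 4 when 1 library was left out (4 without tumor WT replicate 2, 3 without tumor WT replicate 1 or tumor cKO replicate 1, 2 without tumor WT replicate 3, spleen WT replicate 1 or spleen WT replicate 2). Over all genes, the difference was called for 18.3% in the main fit, 19.4% without the composition factor and 25.9% with DESeq2. It was called for 11.4% without the filter and 12.3% without tumor cKO replicate 3. The cause of these shifts was not tested. The fit of 2 groups was not run for the difference between tissues, and the comparison lists were not recomputed. Same-numbered WT and cKO libraries of a tissue did not deviate together (correlations of -0.003, 0.023 and 0.027 in spleen and -0.088, -0.02 and 0.111 in tumor). Spleen and tumor libraries of the same number were not correlated, so a pairing across tissues was not examined this way. The labels do not say what the numbers mark, and the main fit did not take them as pairs. With the replicate block, 5 F-box genes were higher and 10 lower in tumor cKO against WT, 10 and 11 for the tissues in WT, 10 and 18 for the tissues in cKO, 1 and 1 for the difference, and 0 in spleen. The 23 rows that did not pass the filter were not tested in the main fit. Without the filter, Fbxo36 was called in tumor against spleen in cKO, beside 31.3% of all genes. It had 0 reads in spleen cKO and 38 in tumor cKO. No other row of the 23 was called in that fit, and smaller changes in them may not be detectable at this depth.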
